A study of Arabidopsis thaliana with 33 samples.

Results

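Ethanol and lactate fermentation were followed through 5 genes. They were chosen by name, as the steps that turn pyruvate into ethanol or lactate and 1 channel for the product: PDC1 (AT4G33070) and PDC2 (AT5G54960), both pyruvate decarboxylases, ADH1 (AT1G77120), the alcohol dehydrogenase, AT4G17260, a lactate dehydrogenase, and NIP2-1 (AT2G34390), a membrane channel of the aquaporin family. Each has 1 probe set, so that 5 of the 22746 probe sets on the array were members, and all 5 were among the 22645 tested. The platform annotation names the probe sets of PDC2 and AT4G17260. Those of PDC1, ADH1 and NIP2-1 were named from the study's gene tables, which list genes that the study had called on these same arrays, so the calls of these 3 are not independent evidence. The suffix of the NIP2-1 probe set (_s_at) marks a set that can match transcripts of more than 1 gene.

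When oxygen runs short, plant mitochondria cannot accept electrons from NADH fast enough, and glycolysis continues only if NADH is oxidized in another way. In ethanol fermentation pyruvate decarboxylase removes carbon dioxide from pyruvate to give acetaldehyde, and alcohol dehydrogenase reduces acetaldehyde to ethanol. In lactate fermentation lactate dehydrogenase reduces pyruvate in 1 step, and the acid formed can leave the cell through channels such as NIP2-1, known in Arabidopsis as a lactic acid channel. These genes are textbook low-oxygen genes of roots, and their transcripts say nothing by themselves about enzyme activity or the flow of carbon.

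The arrays were Affymetrix ATH1 arrays of Arabidopsis thaliana seedlings, ecotype WS, 10 d old, held for 24 h in sealed chambers and then dissected into roots and shoots. The 6 atmospheres were 97 kPa (the control, with oxygen at 21 kPa), 50 kPa (oxygen 10 kPa), 25 kPa (oxygen 5 kPa), 50 kPa/NormOx and 25 kPa/NormOx (the same total pressures with oxygen restored to 21 kPa), and 97 kPa/HypOx (control pressure with oxygen at 5.1 kPa). Carbon dioxide was held constant in all of them, light was continuous, and each RNA came from pooled seedlings, so values are averages over whole organs, in which a change in level per cell and a change in the mix of cells cannot be told apart. Roots had 3 arrays in each group except 50 kPa/NormOx (2 arrays) and 25 kPa/NormOx (1 array), and shoots had 3 in each except 50 kPa/NormOx (4 arrays) and 97 kPa/HypOx (2 arrays). The fit uses 1 spread per probe set for all its groups, so root 25 kPa/NormOx, with 1 array, is taken to vary like the others. Root SDs at 97 kPa and 25 kPa were unequal for PDC1 (1.18 and 0.15), AT4G17260 (1.05 and 0.15) and PDC2 (0.69 and 0.12). For these genes the SE and p of root differences from 97 kPa may therefore be too small. ADH1 (0.17) and NIP2-1 (0.15) had no such wide control. By the study's methods every treatment ran in several chambers and RNA came from a tube of each, but the labels do not give the chamber of an array, so p-values measure the spread between these arrays.

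Values are log2 RMA signals, and the organs were normalized separately. Levels were therefore compared only within 1 probe set and 1 organ, and organs only through their differences from 97 kPa. Changes count as called here where limma's unadjusted p was under 0.01 and the change reached 2-fold (1 on the log2 scale), which is the threshold the study used. The p-values printed are adjusted by Benjamini-Hochberg across the 22645 probe sets tested unless a permutation test is named.

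2 arrays stood apart from the rest of their organ over all probe sets. The mean correlation with the rest was 0.884 for root 97 kPa replicate 1, where the remaining root arrays had 0.966 to 0.980, and 0.898 for shoot 50 kPa/NormOx replicate 1, where the remaining shoot arrays had 0.974 to 0.983. The first belongs to the control of every root comparison. Of 8 shoot markers fixed for the check of the organ labels, 3 had a named probe set. PORB, PSAD1 and PSAL, all of photosynthetic tissue and the last 2 named from the study's gene tables, lay between 9.18 and 12.00 in shoots and between 4.67 and 7.49 in roots. Their summed signal in roots was 8.07 to 8.49 at 25 kPa and 7.24 to 8.20 at 97 kPa/HypOx, against 7.16 to 7.72 at 97 kPa and 7.06 to 7.57 at 50 kPa, and the NormOx arrays lay inside the control range. On every array at 25 kPa it lay above all controls, while the ranges at 97 kPa/HypOx and at 50 kPa overlapped that of the control. Of the 3, PSAD1 was itself called higher in roots at 25 kPa (1.12, adjusted p = 0.12). In shoots, which were normalized separately, the sum lay between 12.50 and 12.92. The part of these markers in the root results at 25 kPa was not tested. The 1 of 9 root markers with a probe set, EXPA7 of root hairs, lay between 6.70 and 8.36 in roots and between 4.24 and 7.11 in shoots, where the ranges overlap.

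**Figure D1:**
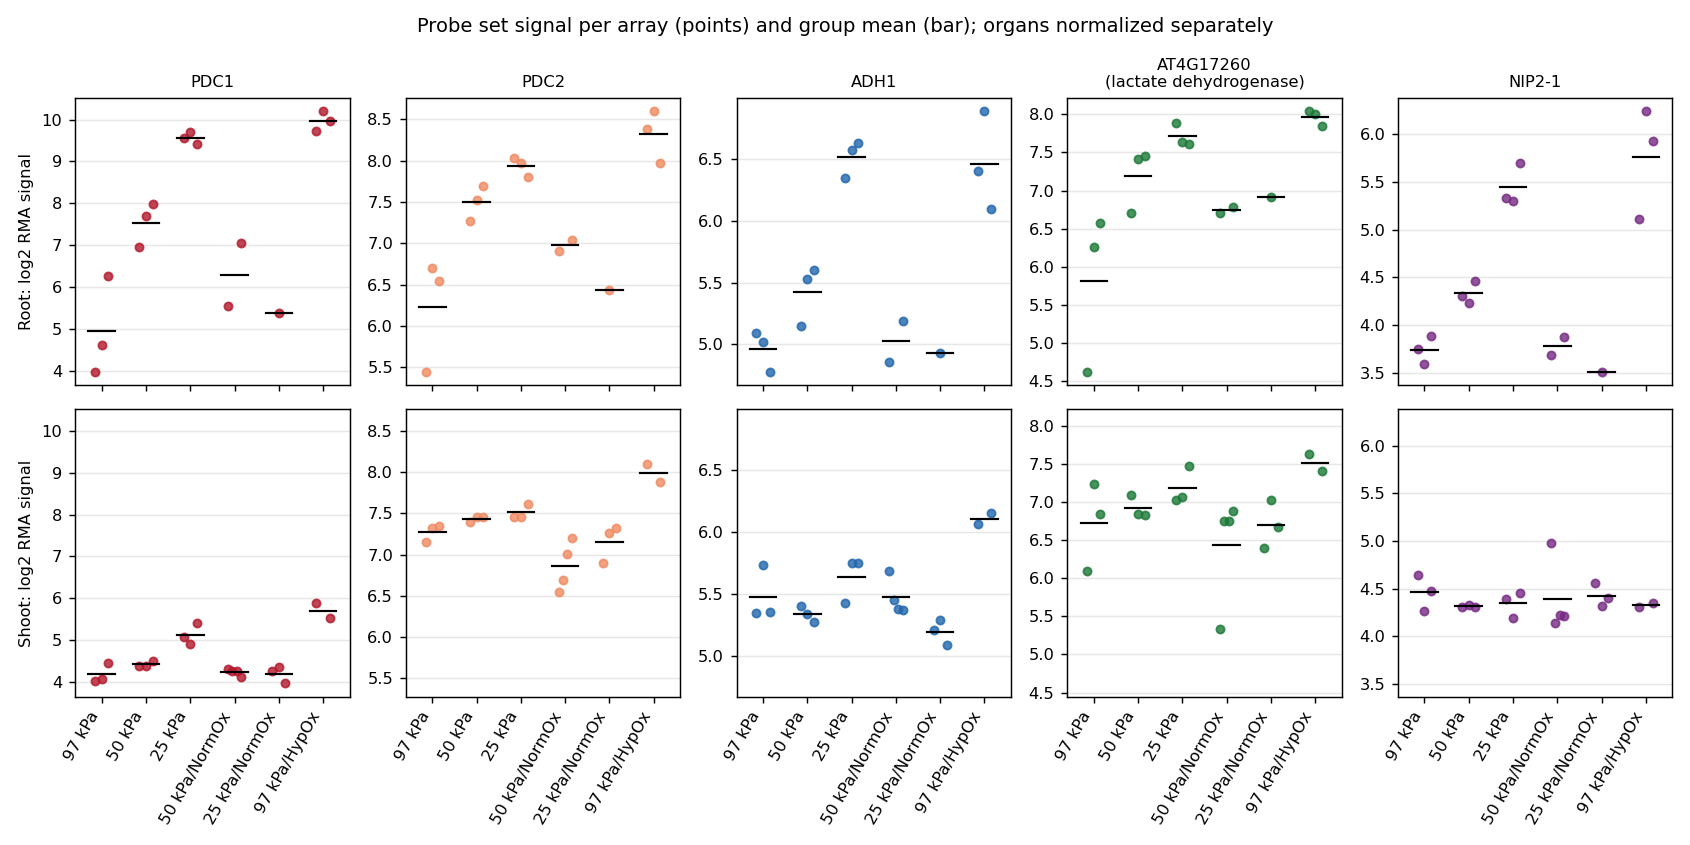
Log2 RMA signal (vertical axis) of the 5 genes on every root array (upper row) and shoot array (lower row) in the 6 atmospheres (horizontal axis). Points are arrays and bars are group means. PDC1 in roots lay between 9.41 and 10.20 on the 6 arrays with low oxygen at 25 kPa and 97 kPa/HypOx, above all other root arrays, and the group means of NIP2-1 span 2.26 in roots and 0.14 in shoots.

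PDC1 catalyses the committed step of ethanol fermentation, and its group means spanned more than those of the other 4 genes in both organs (5.03 log2 units in roots and 1.52 in shoots). Over single shoot arrays AT4G17260 ranged wider, from 5.33 to 7.63, than PDC1, from 3.97 to 5.89. In roots it read 3.96, 4.61 and 6.25 at 97 kPa, 6.96, 7.68 and 7.97 at 50 kPa, and 9.41, 9.55 and 9.71 at 25 kPa. The 3 groups did not overlap, although the control arrays alone spanned 2.29 log2 units. With oxygen restored PDC1 read 5.55 and 7.04 at 50 kPa/NormOx and 5.38 at 25 kPa/NormOx, so that 2 of these 3 arrays lay inside the control range, and with oxygen lowered at control pressure it read 9.73, 9.96 and 10.20. The order of the root means was thus 97 kPa/HypOx (9.97 ± 0.24, SD, n = 3), 25 kPa (9.56 ± 0.15, n = 3), 50 kPa (7.54 ± 0.52, n = 3), 50 kPa/NormOx (6.30 ± 1.05, n = 2), 25 kPa/NormOx (5.38, 1 array) and 97 kPa (4.94 ± 1.18, n = 3). At 25 kPa the 3 arrays sat at the 96.2 to 97.0 percentiles of all probe sets on their array, and at 97 kPa at the 22.3 to 69.5 percentile.

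Against 97 kPa, the log2 fold-change of PDC1 in roots was 2.60 (SE 0.52, adjusted p = 0.22) at 50 kPa, 4.62 (SE 0.52, adjusted p = 0.0029) at 25 kPa and 5.03 (SE 0.52, adjusted p = 0.0012) at 97 kPa/HypOx. These are 6.06-fold, 24.5-fold and 32.6-fold, and all 3 were called. The size depends on control replicate 3, the highest of the 3: without it the folds were 9.55, 38.6 and 51.3. At 50 kPa/NormOx the log2 fold-change was 1.36 (SE 0.58, adjusted p = 0.58) and was not called, but without control replicate 3 it was 2.01 and was. At 25 kPa/NormOx it was 0.44, with a 95% confidence interval from −1.16 to 2.04. PDC1 was the 12th most significant of all probe sets in roots at both 25 kPa and 97 kPa/HypOx.

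In shoots PDC1 was dim, at the 14.9 to 33.1 percentile of all probe sets at 97 kPa, and moved less. Whether it lay above background there was not tested. It read 4.01, 4.08 and 4.45 at 97 kPa, 4.37, 4.37 and 4.51 at 50 kPa, 4.90, 5.07 and 5.41 at 25 kPa, and 5.52 and 5.89 at 97 kPa/HypOx. The 5 arrays with oxygen near 5 kPa were the 5 highest of the 18, and the NormOx arrays lay between 3.97 and 4.36. The log2 fold-change was 1.52 (SE 0.17, adjusted p = 0.0021), or 2.87-fold, at 97 kPa/HypOx. At 25 kPa it was 0.94 (SE 0.15, adjusted p = 0.032), or 1.92-fold, just under the 2-fold threshold. It passed that threshold without control replicate 3 (1.08) or without 25 kPa replicate 2 (1.06). Its values at 50 kPa (0.24, SE 0.15), 50 kPa/NormOx (0.06, SE 0.14) and 25 kPa/NormOx (0.01, SE 0.15) were not called.

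PDC2, the other pyruvate decarboxylase with a named probe set, sat at the 55.8 to 76.1 percentile of all probe sets in control roots and at the 82.3 to 84.3 percentile in control shoots. Root arrays read 5.44, 6.54 and 6.70 at 97 kPa, 7.27, 7.53 and 7.69 at 50 kPa, 7.80, 7.97 and 8.04 at 25 kPa, and 7.98, 8.39 and 8.60 at 97 kPa/HypOx. All 9 arrays with oxygen at or below 10 kPa lay above every array with oxygen at 21 kPa, where 50 kPa/NormOx read 6.91 and 7.04 and 25 kPa/NormOx read 6.44. With lowered oxygen the log2 fold-change was 1.27 (SE 0.28, adjusted p = 0.25) at 50 kPa, 1.71 (SE 0.28, adjusted p = 0.028) at 25 kPa and 2.09 (SE 0.28, adjusted p = 0.0068) at 97 kPa/HypOx, and all were called. The control array that stood apart, replicate 1, was the lowest of all root arrays for this gene. Without it PDC2 at 50 kPa fell under the fold threshold (0.87), and the other values were 1.31 and 1.70 and still called.

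Shoot PDC2 read 7.16, 7.32 and 7.35 at 97 kPa and 7.87 and 8.10 at 97 kPa/HypOx, a log2 difference of 0.71 (SE 0.17, adjusted p = 0.48) that stayed under 2-fold. At 25 kPa it read 7.46, 7.46 and 7.62, also above the controls, with a log2 fold-change of 0.23 (95% confidence interval −0.09 to 0.56). The 4 arrays at 50 kPa/NormOx read 6.55, 6.69, 7.002 and 7.20, and the difference from control was −0.42 (SE 0.14, adjusted p = 0.62) and was not called. PDC2 in shoots therefore covered 1.12 log2 units between its lowest and highest group mean, against 2.09 in roots.

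ADH1, the enzyme that makes ethanol, had tighter controls. Root arrays read 4.77, 5.02 and 5.10 at 97 kPa, 5.15, 5.53 and 5.60 at 50 kPa, 6.34, 6.57 and 6.63 at 25 kPa, and 6.09, 6.40 and 6.89 at 97 kPa/HypOx. The 6 arrays with oxygen near 5 kPa lay above all others, and 50 kPa arrays lay just above control. With oxygen restored ADH1 read 4.86 and 5.19 at 50 kPa/NormOx and 4.93 at 25 kPa/NormOx, within or next to the control range. The log2 fold-change was 1.55 (SE 0.20, adjusted p = 0.0062), or 2.93-fold, at 25 kPa and 1.50 (SE 0.20, adjusted p = 0.0068), or 2.82-fold, at 97 kPa/HypOx, and both were called. At 50 kPa it was 0.46 (SE 0.20, adjusted p = 0.43) and was not called. Without the control array that stood apart the 3 values were 1.62, 1.56 and 0.53.

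In shoots ADH1 read 5.34, 5.36 and 5.73 at 97 kPa, 5.42, 5.75 and 5.75 at 25 kPa, and 6.06 and 6.15 at 97 kPa/HypOx. Only the last group lay clear of the control, by 0.63 on the log2 scale (SE 0.14, adjusted p = 0.29), under the 2-fold threshold. The log2 fold-changes at 25 kPa (0.16, 95% confidence interval −0.10 to 0.43) and 50 kPa (−0.14, −0.40 to 0.13) had intervals that span 0. At 25 kPa/NormOx ADH1 read 5.08, 5.20 and 5.29, below all 3 controls, as 3.36% of all probe sets were, and the difference was −0.28 (SE 0.12, adjusted p = 1.0).

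AT4G17260, the lactate dehydrogenase, rose in roots from controls that spread widely. It read 4.62, 6.25 and 6.58 at 97 kPa, 6.70, 7.41 and 7.45 at 50 kPa, 7.61, 7.64 and 7.88 at 25 kPa, and 7.84, 7.998 and 8.04 at 97 kPa/HypOx. Its NormOx arrays, 6.70 and 6.78 at 50 kPa and 6.92 at 25 kPa, all lay above the control range as well. The log2 fold-change was 1.37 (SE 0.40, adjusted p = 0.31) at 50 kPa, 1.90 (SE 0.40, adjusted p = 0.086) at 25 kPa and 2.15 (SE 0.40, adjusted p = 0.046) at 97 kPa/HypOx. All 3 were called, but only the last passed after adjustment. The low array is the control that stood apart. Without it the folds dropped from 2.59 to 1.71 at 50 kPa, which ended the call, from 3.72 to 2.46 at 25 kPa and from 4.42 to 2.92 at 97 kPa/HypOx, and the last 2 were still called. The call at 50 kPa was also lost without 50 kPa replicate 2 (1.26) or replicate 3 (1.24), where the unadjusted p rose above 0.01. With oxygen restored it read 1.90-fold above control at 50 kPa (adjusted p = 0.58) and 2.15-fold at 25 kPa (adjusted p = 0.77), neither called, and without the control that stood apart 1.25-fold and 1.42-fold. Root arrays at 50 kPa/NormOx lay above all controls for 11% of all probe sets, and the array at 25 kPa/NormOx did so for 20.2%. Without control replicate 3, the value at 50 kPa/NormOx was 1.31 and was called.

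In shoots AT4G17260 read 6.10, 6.84 and 7.23 at 97 kPa, 7.02, 7.06 and 7.47 at 25 kPa, and 7.40 and 7.63 at 97 kPa/HypOx. The groups with low oxygen were on the high side but only 97 kPa/HypOx cleared the control range, with a log2 fold-change of 0.79 (95% confidence interval −0.06 to 1.65, adjusted p = 1). At 50 kPa/NormOx 1 array read 5.33 and the others 6.75, 6.75 and 6.89, and the low one is the shoot array that stood apart.

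NIP2-1, the channel, gave a dim signal in control roots, at the 9.78 to 19.7 percentile of all probe sets. It read 3.59, 3.75 and 3.88 at 97 kPa, 4.23, 4.30 and 4.46 at 50 kPa, 5.30, 5.33 and 5.70 at 25 kPa, and 5.11, 5.93 and 6.24 at 97 kPa/HypOx. Groups with 21, 10 and 5 kPa of oxygen did not overlap, since 50 kPa/NormOx read 3.69 and 3.87 and 25 kPa/NormOx read 3.50. The log2 fold-change was 1.70 (SE 0.24, adjusted p = 0.0098), or 3.25-fold, at 25 kPa and 2.02 (SE 0.24, adjusted p = 0.0023), or 4.05-fold, at 97 kPa/HypOx, and both were called. At 50 kPa it was 0.59 (SE 0.24, adjusted p = 0.42) and was not.

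NIP2-1 in shoots showed no such pattern. Its 6 group means lay between 4.32 and 4.46, a span of 0.14 log2 units against 2.26 in roots. It sat at the 20.8 to 46.6 percentile of all probe sets on the shoot arrays, and whether it lay above background there was not tested, so that this span is one of a dim signal. At 97 kPa/HypOx it read 4.31 and 4.35, with a log2 fold-change of −0.13 (95% confidence interval −0.55 to 0.29), and at 25 kPa 4.19, 4.39 and 4.45, with −0.11 (−0.49 to 0.26). The single array outside 4.14 to 4.64 was 50 kPa/NormOx replicate 1, at 4.97.

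**Figure D2:**
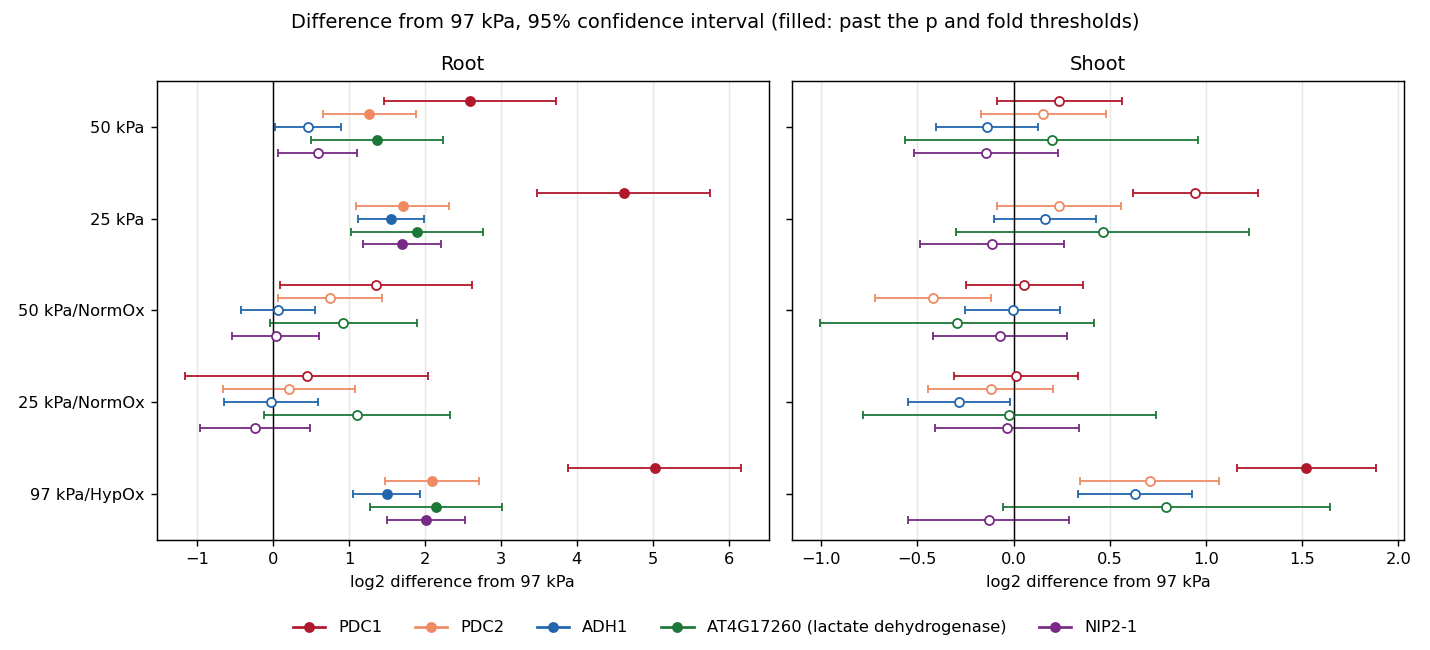
Log2 fold-change from 97 kPa (horizontal axis, with its own range in each panel) of the 5 genes in each atmosphere, for roots (left) and shoots (right). Points are limma estimates, lines 95% confidence intervals, and filled points pass p under 0.01 and 2-fold. All 5 genes were called in roots at 25 kPa and at 97 kPa/HypOx, and in shoots PDC1 alone was called, at 97 kPa/HypOx.

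Read across the 5 genes, calls in roots fell in the 3 groups with lowered oxygen. PDC1, ADH1 and NIP2-1 were named only from lists of genes called on these arrays. Here and below, counts that include them therefore cannot show more calls than among all probe sets. PDC2 and AT4G17260, named by the platform annotation, were called in all 3 groups, but at 50 kPa not without root 97 kPa replicate 1. At 25 kPa 5 of the 5 genes were called higher, where 0.83% of all probe sets were called higher. For 4 of them the adjusted p was under 0.05, as for 0.296% of all probe sets, and the median log2 fold-change of the 5 was 1.71, while that over all probe sets was under 0.01 in size. At 97 kPa/HypOx 5 of 5 were called higher, where 0.601% of all probe sets were, and all passed after adjustment, where 0.393% did, with a median of 2.09. At 50 kPa 3 of 5 (PDC1, PDC2 and AT4G17260) were called higher, where 0.353% of all probe sets were, and none passed after adjustment. Without root 97 kPa replicate 1, PDC1 alone was left of these 3. At 50 kPa/NormOx and at 25 kPa/NormOx 0 of 5 were called by limma, where 0.0486% and 0.0221% of all probe sets were called higher. At an unadjusted p under 0.05 these 2 comparisons had 2 of the 5 (PDC1 and PDC2) and 0 of the 5, and 6.88% and 3.96% of all probe sets. The arrays of all 5 genes lay above all 3 controls at 50 kPa, at 25 kPa and at 97 kPa/HypOx, as did those of 4.54%, 8.77% and 6.5% of all probe sets. At 50 kPa/NormOx those of PDC2 and AT4G17260 did, as for 11% of all probe sets. The 1 array at 25 kPa/NormOx lay above all controls for AT4G17260 and below them for NIP2-1, as for 20.2% and 17.4%. The 5 comparisons share the 3 control arrays. In shoots 1 of 5 (PDC1) was called higher at 97 kPa/HypOx, where 0.159% of all probe sets were called higher, and 0 of 5 at 25 kPa, where 0.23% were. At 50 kPa, 50 kPa/NormOx and 25 kPa/NormOx 0 of 5 were called in shoots, where 0.102%, 0.0353% and 0.0486% of all probe sets were called higher. At an unadjusted p under 0.05 there were 1 of 5 (PDC1) in shoots at 25 kPa, 0 of 5 at 50 kPa, 1 of 5 (PDC2, lower) at 50 kPa/NormOx and 1 of 5 (ADH1, lower) at 25 kPa/NormOx, and 7.45%, 6.08%, 5.89% and 2.58% of all probe sets. Shoot arrays lay above all controls for 2 of 5 genes (PDC1 and PDC2) at 25 kPa and for 4 of 5 at 97 kPa/HypOx, against 7.3% and 10.6% of all probe sets. At 50 kPa they did so for PDC2, against 8.6%, and at 25 kPa/NormOx they lay below all controls for ADH1, against 3.36%.

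Oxygen at a fixed pressure was tested next, by comparing 25 kPa with 25 kPa/NormOx. In roots 4 of 5 genes were called higher without the added oxygen, where 0.208% of all probe sets were. The log2 fold-changes were 4.18 (SE 0.73) for PDC1, 1.50 (SE 0.40) for PDC2, 1.58 (SE 0.28) for ADH1 and 1.94 (SE 0.33) for NIP2-1, with adjusted p of 0.17, 0.73, 0.17 and 0.17. AT4G17260 differed by 0.79 (95% confidence interval −0.43 to 2.02) and was not called. These values rest on 1 array at 25 kPa/NormOx, which lay below all 3 arrays at 25 kPa for each gene, as it did for 28.7% of all probe sets. In shoots, with 3 arrays on each side, PDC1 differed by 0.93 (SE 0.15, adjusted p = 0.072), ADH1 by 0.45 (SE 0.12, adjusted p = 0.33) and PDC2 by 0.35 (SE 0.15, adjusted p = 0.72). For these 3 of 5 genes all 3 arrays at 25 kPa lay above all 3 at 25 kPa/NormOx, as they did for 6.69% of all probe sets, and the same 3 had an unadjusted p under 0.05, as did 6.36%. By the study's threshold 0 of 5 genes were called, where 0.0839% of all probe sets were called higher. PDC1 passed 2-fold without shoot 25 kPa replicate 2 (1.05) or without 25 kPa/NormOx replicate 2 (1.01). At 50 kPa the same comparison gave no calls. In roots 0 of 5 were called between 50 kPa and 50 kPa/NormOx, where 0.0397% of all probe sets were called higher, and PDC1 came nearest with 1.24 (SE 0.58, adjusted p = 1). It passed the threshold without root 97 kPa replicate 3, with the difference still at 1.24. In shoots 0 of 5 were called, where 0.0751% were, and PDC2 was nearest (0.57, SE 0.14, adjusted p = 0.55). At an unadjusted p under 0.05 there were 0 of 5 in roots and 1 of 5 (PDC2) in shoots, and 2.17% and 7.48% of all probe sets. Without root 97 kPa replicate 1 PDC1 (1.24) and PDC2 (0.52) passed that level in roots, with unadjusted limma p of 0.026 and 0.014. Arrays at 50 kPa lay above all those at 50 kPa/NormOx for PDC2 and NIP2-1 in roots and for PDC1 and PDC2 in shoots, 2 of 5 in each organ, as for 7.04% and 3.95% of all probe sets.

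Pressure at a fixed low oxygen was addressed by comparing 25 kPa with 97 kPa/HypOx, whose oxygen pressures are 5 and 5.1 kPa. In roots 0 of 5 genes and 0 of all probe sets were called, and 0 of 5 had an unadjusted p under 0.05, as did 1.73% of all probe sets. Without root 97 kPa replicate 1 PDC2 (−0.38) passed that level, with an unadjusted limma p of 0.034. Log2 differences ran from −0.41 (PDC1, 95% confidence interval −1.54 to 0.72) to 0.06 (ADH1, −0.38 to 0.49). The 3 PDC1 arrays at 25 kPa all lay below the 3 at 97 kPa/HypOx, as did those of 7.23% of all probe sets. In shoots PDC1 (−0.58, SE 0.17), ADH1 (−0.47, SE 0.14) and PDC2 (−0.47, SE 0.17) read lower at 25 kPa on every array than on either array at 97 kPa/HypOx. Such a separation downward occurred for 12.9% of all probe sets, none of the 3 reached 2-fold, and their adjusted p was 1. At an unadjusted p under 0.05 there were 3 of 5 genes, these same 3, and 2.53% of all probe sets. By the study's threshold 0 of 5 genes were called, where 0.0132% of all probe sets were called lower and 0.00883% higher.

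The 2 hypobaric depths were compared directly as well. Between 25 kPa and 50 kPa, 3 of 5 genes were called higher in roots, where 0.247% of all probe sets were: PDC1 (2.02, SE 0.52), ADH1 (1.09, SE 0.20) and NIP2-1 (1.11, SE 0.24), with adjusted p of 0.14 to 0.24. PDC2 (0.44, SE 0.28) and AT4G17260 (0.53, SE 0.40) were not called. The calls were close to the threshold: without root 50 kPa replicate 1 PDC1 (1.73) and ADH1 (0.95) were not called, and without root 25 kPa replicate 3 NIP2-1 (0.98) was not. In shoots the difference was 0.71 for PDC1 (SE 0.15, adjusted p = 0.88) and 0.03 to 0.30 for the others, and 0 of 5 were called, where 0.00442% of all probe sets were called higher. At an unadjusted p under 0.05 there were 2 of 5 (PDC1 and ADH1), and 4.72% of all probe sets.

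**Figure D3:**
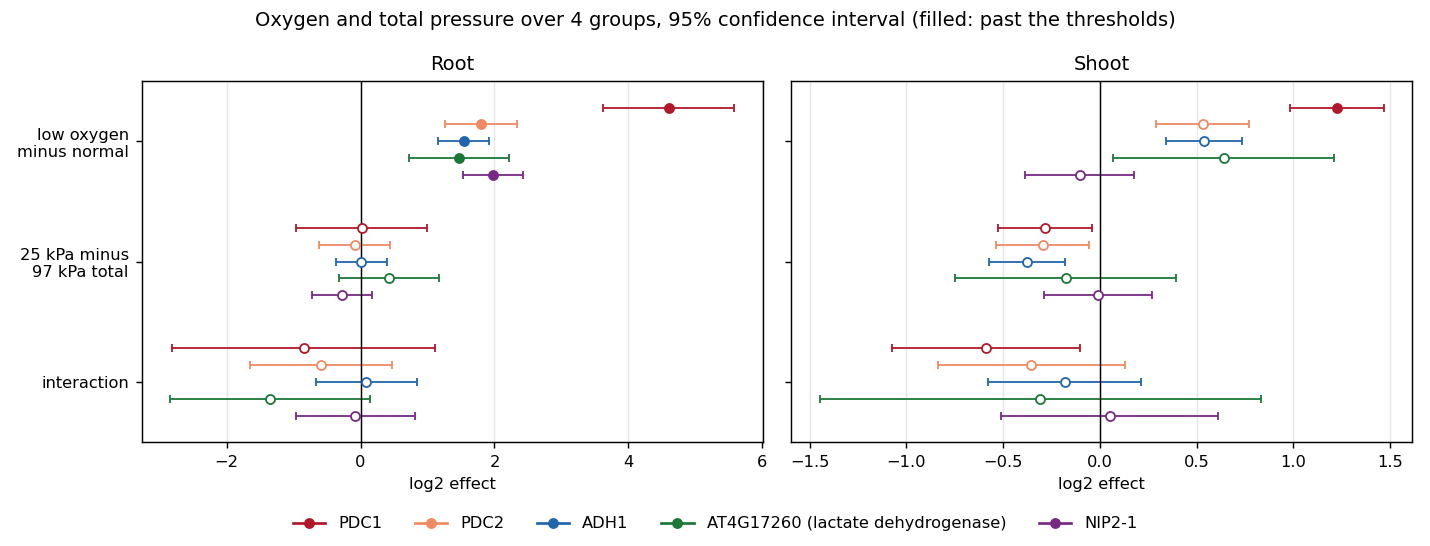
Effects of oxygen (groups at 5 kPa minus groups at 21 kPa), of total pressure (25 kPa minus 97 kPa) and of their interaction on the log2 scale (horizontal axis, with its own range in each panel), over the 97 kPa, 97 kPa/HypOx, 25 kPa/NormOx and 25 kPa groups of roots (left) and shoots (right). Points are limma estimates, lines 95% confidence intervals, filled points pass both thresholds. The root oxygen effect was called for all 5 genes and ran from 1.47 to 4.60. Root 25 kPa/NormOx, part of every root effect, is 1 array.

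The groups at 97 kPa, 97 kPa/HypOx, 25 kPa/NormOx and 25 kPa form a square of total pressure by oxygen. In roots 25 kPa/NormOx is 1 array, so every root effect over this square depends on it. The limit on counts that include PDC1, ADH1 and NIP2-1, named from lists of called genes, holds here too. Over this square the root oxygen effect was called for 5 of 5 genes, where 0.358% of all probe sets were called higher. It was 4.60 (SE 0.45, adjusted p = 0.00068) for PDC1, 1.80 (SE 0.24, adjusted p = 0.0064) for PDC2, 1.54 (SE 0.17, adjusted p = 0.0016) for ADH1, 1.98 (SE 0.20, adjusted p = 0.00091) for NIP2-1 and 1.47 (SE 0.34, adjusted p = 0.14) for AT4G17260. The root pressure effect was called for 0 of 5, where 0% of all probe sets were called higher and 0.00442% lower, with estimates between −0.28 and 0.43. The interaction was called for 0 of 5 too, where 0.0221% were called higher and 0.0221% lower, and the largest was that of AT4G17260 (−1.35, 95% confidence interval −2.85 to 0.15). Both had 0 of 5 in roots at an unadjusted p under 0.05, and 3.94% and 2.47% of all probe sets. Without root 97 kPa replicate 1 the root interaction of AT4G17260 was −0.75 and passed that level, and its root oxygen effect was 1.17. In shoots the oxygen effect was called for PDC1 (1.23, SE 0.11, adjusted p = 0.00021), where 0.119% of all probe sets were called higher. ADH1 (0.54, SE 0.09, adjusted p = 0.030) passed the adjusted threshold but not 2-fold, and PDC2 read 0.53 (adjusted p = 0.092). The shoot pressure effect was below 0 for 5 of 5 genes, where 49.7% of all probe sets were above 0. For NIP2-1 (−0.009, 95% confidence interval −0.29 to 0.27) and AT4G17260 (−0.18, −0.75 to 0.39) the intervals span 0. This effect was called for 0 of 5, where 0.00442% of all probe sets were called lower and 0.0177% higher. For ADH1 it was −0.38 (SE 0.09, adjusted p = 1). The shoot interaction was called for 0 of 5, where 0% of all probe sets were called higher and 0.0353% lower. The pressure effect had, at an unadjusted p under 0.05, 3 of 5 (PDC1, PDC2 and ADH1) and the interaction 1 of 5 (PDC1, −0.59), and 2.88% and 2.25% of all probe sets.

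**Figure D4:**
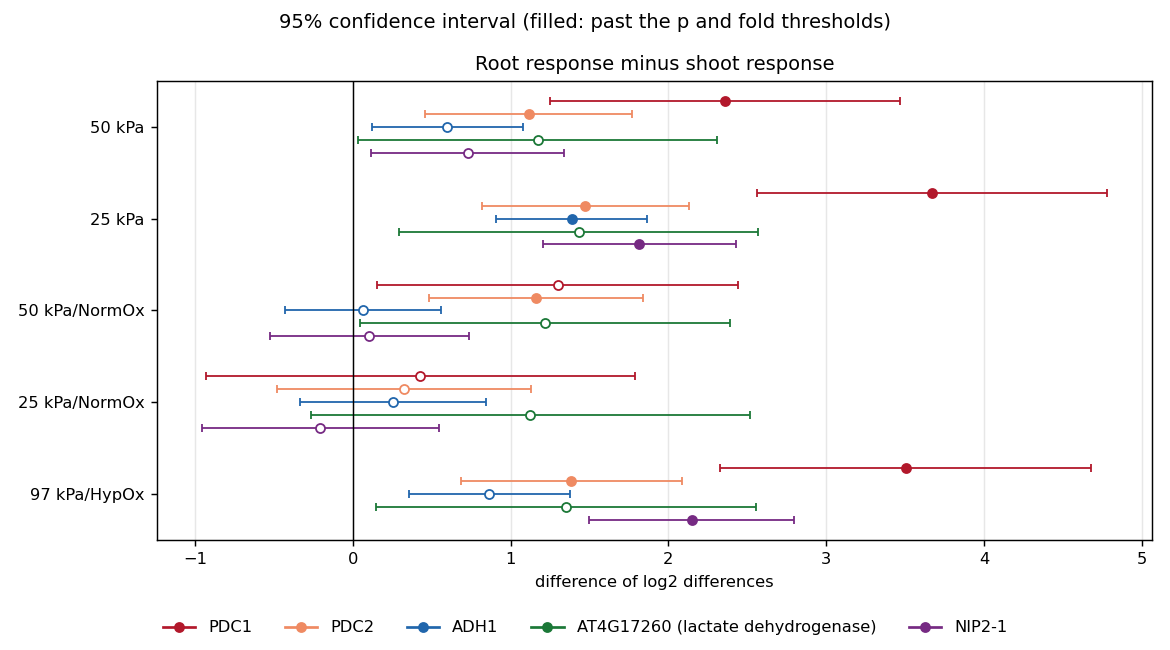
Log2 fold-change in roots minus log2 fold-change in shoots (horizontal axis) of the 5 genes in each atmosphere, each against 97 kPa of its own organ. Points are limma estimates from all 33 arrays, lines 95% confidence intervals, filled points pass both thresholds. At 25 kPa 4 of the 5 genes and at 97 kPa/HypOx 3 of the 5 were called higher, where 0.645% and 0.344% of all probe sets were. Both counts include NIP2-1, whose shoot signal was dim. The PDC2 call at 97 kPa/HypOx was lost without root 97 kPa replicate 1 (0.99).

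Whether roots and shoots differed in response was tested as the difference of the 2 log2 fold-changes. At 25 kPa 4 of 5 genes were called as responding more in roots, where 0.645% of all probe sets were: PDC1 by 3.67 (SE 0.54, adjusted p = 0.0037), NIP2-1 by 1.82 (SE 0.30, adjusted p = 0.0060), PDC2 by 1.47 (SE 0.32, adjusted p = 0.065) and ADH1 by 1.39 (SE 0.23, adjusted p = 0.0078). PDC1 ranked 2nd of all probe sets in this test. At 97 kPa/HypOx 3 of 5 were called, where 0.344% of all probe sets were: PDC1 by 3.50 (SE 0.57, adjusted p = 0.0070), NIP2-1 by 2.15 (SE 0.31, adjusted p = 0.0037) and PDC2 by 1.39 (SE 0.34, adjusted p = 0.21). ADH1 differed there by 0.87 (SE 0.25, adjusted p = 0.37), under 2-fold, and passed it without root 97 kPa/HypOx replicate 3 (1.05). AT4G17260 differed by 1.43 (SE 0.55, adjusted p = 0.46) and 1.35 (SE 0.58, adjusted p = 0.97) in the 2 atmospheres and was not called. Of the genes named by the platform annotation, PDC2 alone was thus called in these 2 atmospheres. The shoot signal of NIP2-1 was dim and was not tested against background. Whether its shoots responded less therefore cannot be read from its 2 differences. PDC1 was dim in control shoots too, at the 14.9 to 33.1 percentile of all probe sets. The part of this in the size of its differences was not tested.

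At 50 kPa PDC1 (2.36, SE 0.54, adjusted p = 0.20) and PDC2 (1.11, SE 0.32, adjusted p = 0.37) were called, 2 of 5 genes, where 0.256% of all probe sets were. At 50 kPa/NormOx PDC2 was called (1.16, SE 0.33, adjusted p = 0.50), 1 of 5, where 0.411% were, and at 25 kPa/NormOx 0 of 5 were, where 0.0486% were. The last had 0 of 5 at an unadjusted p under 0.05, and 3.54% of all probe sets. The PDC2 calls depend on root 97 kPa replicate 1: without it the differences were 0.72 at 50 kPa, 0.77 at 50 kPa/NormOx and 0.99 at 97 kPa/HypOx, all under 2-fold. PDC1 moved the other way without root 97 kPa replicate 3, to 3.02 at 50 kPa, 4.33 at 25 kPa and 4.16 at 97 kPa/HypOx, and it was then called at 50 kPa/NormOx (1.96). It was called there also without root 50 kPa/NormOx replicate 1 (2.04). AT4G17260 was called at 50 kPa (1.55), 50 kPa/NormOx (1.60), 25 kPa (1.81) and 97 kPa/HypOx (1.73) without root 97 kPa replicate 3. At 25 kPa it was also called without root 97 kPa replicate 2 (1.65), without shoot 97 kPa replicate 1 (1.74) or without shoot 50 kPa/NormOx replicate 1 (1.43).

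The signals of the 5 probe sets did not move by the same amount. Arrays with oxygen near 5 kPa (25 kPa and 97 kPa/HypOx) were compared with arrays at 21 kPa (97 kPa and both NormOx groups) in the log2 difference of 2 probe sets on 1 array, for 10 pairs of genes in each organ. PDC1, ADH1 and NIP2-1 were named only from lists of genes called on these same arrays. In both organs the p-values of pairs that include them are therefore not independent evidence. In roots, with 6 arrays against 6, PDC1 rose by 4.30 and exceeded each of the other 4 genes by 2.41 to 2.79 log2 units (exact permutation test, two-sided, p = 0.0022, the smallest this design can give, adjusted p = 0.0054 over the 10 pairs). PDC2, ADH1, AT4G17260 and NIP2-1 rose by 1.62, 1.51, 1.53 and 1.89, and the 6 pairs among them differed by 0.02 to 0.38 with an exact permutation p of 0.063 or more. NIP2-1 was dim at 21 kPa of oxygen, and the part of this in its pairs was not tested. Without root 97 kPa replicate 1, NIP2-1 exceeded AT4G17260 by 0.70 (exact permutation p = 0.022, adjusted p = 0.043).

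In shoots, with 5 arrays against 10, PDC1 rose by 1.15 and PDC2, AT4G17260, ADH1 and NIP2-1 by 0.63, 0.72, 0.44 and −0.08. PDC1 exceeded PDC2 by 0.52 (exact permutation adjusted p = 0.016), and ADH1 by 0.71 (adjusted p = 0.0022, exact permutation), but AT4G17260 by 0.43 with an adjusted p of 0.21 in the same exact permutation test. The 4 pairs with NIP2-1 differed by 0.52 to 1.23, but no order is read from them, since its shoot signal was dim and was not tested against background. Without shoot 50 kPa/NormOx replicate 1, the difference of PDC1 from AT4G17260 was 0.58 (exact permutation adjusted p = 0.0060), so that this pair too passed.

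The probe sets most like each gene were looked for among the 13633 other probe sets with 1 gene name, by Pearson's r over the 12 group means, each organ centred on its own mean. These are descriptions over 12 points that share arrays, with no test. PDC1 was most like AT4G39675 (0.99), AT2G17850 (0.98) and AT5G66985 (0.98). ASP2, SUS4, HVA22A, GLB3, SRO5 and LCL1, among those that follow, were named from the study's gene tables. PDC2 was most like ASP2, an aspartate aminotransferase (0.97), PDC1 (0.97) and AT5G66985 (0.96), and ADH1 was most like AT3G29970 (0.97), AT2G17850 (0.97) and SUS4, a sucrose synthase (0.97). AT4G17260 was most like OEP16-3 (0.98), HVA22A (0.97) and GLB3, a truncated haemoglobin (0.96).

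NIP2-1 was most like SRO5 (0.98), AT5G26200 (0.98) and LCL1 (0.97), and its likeness held in roots alone: over the 6 root means r was 0.99 for all 3, and over the 6 shoot means −0.65, −0.36 and 0.20. Among the 5 themselves, r over the 12 means ran from 0.72 (AT4G17260 and NIP2-1) to 0.97 (PDC1 and PDC2). Over the 6 shoot means alone NIP2-1 had r of −0.45 to −0.65 with the other 4, whose r with each other was 0.78 to 0.98.

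**Figure D5:**
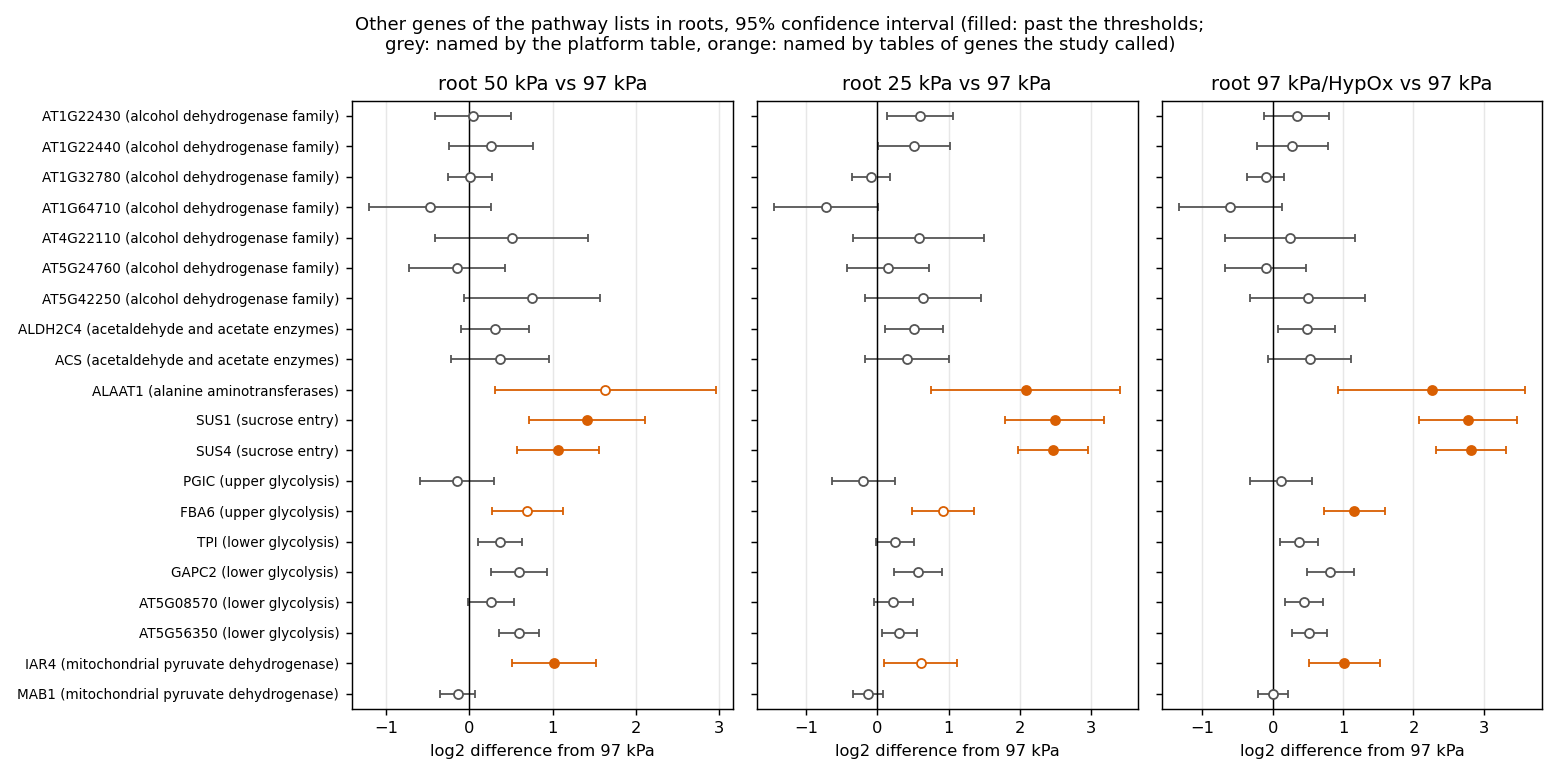
Log2 fold-change from 97 kPa in roots (horizontal axis, with its own range in each panel) of the other 20 genes of the pathway lists with a named probe set, at 50 kPa (left), at 25 kPa (middle) and at 97 kPa/HypOx (right). Points are limma estimates, lines 95% confidence intervals, filled points pass both thresholds. SUS1 and SUS4 were called in all 3 panels, and none of the 15 genes in grey, named by the platform annotation, was called.

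Around the 5 genes, 57 other genes of sugar entry, glycolysis, pyruvate use and the same gene families were listed, and 20 of them had a probe set of 1 named gene. The platform annotation names 15 of the 20, and 0 of these 15 were called in either direction in any of the 29 comparisons, where 2.8% of all probe sets were called in at least 1. In roots their median log2 fold-change was 0.31 at 25 kPa (range −0.71 to 0.64) and 0.34 at 97 kPa/HypOx (−0.60 to 0.82), and in the other atmospheres it was 0.26 at 50 kPa, 0.32 at 50 kPa/NormOx and 0.22 at 25 kPa/NormOx. The medians of all probe sets were under 0.02 in size. Without root 97 kPa replicate 1, an alternative chosen after seeing the data, the 5 medians of the 15 were 0.09, 0.14, 0.08, 0.11 and −0.01 in the same order. The other 5 were named from the study's tables of called genes. Of these, 3 were called higher at 50 kPa, 3 at 25 kPa and 5 at 97 kPa/HypOx in roots and 0 in shoots, which is no independent evidence of their direction. Without root 97 kPa replicate 1 these counts were 0, 3 and 4.

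Upstream of pyruvate, SUS1 and SUS4, sucrose synthases that split sucrose with little use of ATP, were called at all 3, but at 50 kPa (1.41 and 1.07) not without root 97 kPa replicate 1 (0.94 and 0.82). At 25 kPa they read 2.49 (SE 0.32, adjusted p = 0.0062) and 2.46 (SE 0.22, adjusted p = 0.0012) above control on the log2 scale. FBA6, an aldolase of upper glycolysis, was called at 97 kPa/HypOx (1.16, SE 0.20, adjusted p = 0.030). In lower glycolysis GAPC2, a cytosolic glyceraldehyde phosphate dehydrogenase, had the largest value at 25 kPa (0.57, SE 0.15, adjusted p = 0.16), under 2-fold, and at 97 kPa/HypOx it read 0.82 (SE 0.15, adjusted p = 0.048), also under 2-fold.

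At the pyruvate branch, IAR4, a subunit of mitochondrial pyruvate dehydrogenase, was called at 50 kPa (1.02, SE 0.23) and 97 kPa/HypOx (1.02, SE 0.23), with adjusted p of 0.27 and 0.11, and at neither (0.75 and 0.76) without root 97 kPa replicate 1. ALAAT1, an alanine aminotransferase that turns pyruvate into alanine, was called at 25 kPa (2.08, SE 0.61, adjusted p = 0.20) and 97 kPa/HypOx (2.26, SE 0.61, adjusted p = 0.21). It read 1.63 above control at 50 kPa, 1.84 at 50 kPa/NormOx and 1.00 at 25 kPa/NormOx, none called. Its control arrays ran from 4.23 to 7.21, and without root 97 kPa replicate 1 the 5 values were 1.16, 1.33, 0.70, 0.92 and 0.07, of which the first 2 were still called. Downstream of acetaldehyde, ALDH2C4, an aldehyde dehydrogenase, read 0.52 at 25 kPa (SE 0.19, adjusted p = 0.28), and 0.31 without root 97 kPa replicate 1. Of the 7 other alcohol dehydrogenase family genes with a probe set, AT5G42250 had the highest value at 25 kPa (0.64, SE 0.37) and AT1G64710 the lowest (−0.71, SE 0.34), and neither was called. Without root 97 kPa replicate 1 they read 0.09 and −0.29, and AT1G22430 was then the highest (0.46). PDC3 and PDC4 share a probe set and were not analysed here, and 0 of the 8 other NIP channels listed had a named probe set.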

How the data were processed

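The authors deposited log2 expression values, normalized with RMA in Affymetrix Expression Console per the labels (no versions given), for 33 ATH1 arrays, 15 of roots (2.88 to 13.56) and 18 of shoots (3.31 to 13.44). Each organ had its own quantile set. The genome build is not given in the sources used here, so no coordinates are printed. Arrays have no read depth, and their number limits the precision.

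Of 22746 probe sets, 101 of organelle genes were removed. In the annotation of the platform 13513 carry 1 gene name, 503 carry several and 8730 carry none, and 213 more were named through the study's gene tables.

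Groups came from the sample labels. A limma model (version 3.58.1, R 4.3.3) was fitted over all 6 groups of an organ, or all 12 for root minus shoot, with Benjamini-Hochberg adjustment over 22645 probe sets. The code was tested on simulated data. Pairs of genes were compared by exact permutation tests (scipy 1.17.1, Python 3.11.15). Alternatives were leaving out each array, a replicate block, array weights, an intensity trend with robust spread, quantile normalization over both organs, only the 2 groups compared, keeping organelle probe sets and leaving out dim ones (below the 25th percentile).

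The 5 genes, the pathway lists and the markers were chosen with earlier results of these data known. Genes named in the text are the 5, list genes called in a comparison, otherwise the list member with the largest difference in roots at 25 kPa, and the 3 most alike probe sets. Columns of the authors' own comparisons were not used.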

Additional observations from a re-analysis of the deposited data

Results flagged for a closer look

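Shoot 50 kPa/NormOx was the only group with 4 arrays, and its replicate 1 lay far from the other 3 for 2 of the 5 genes. AT4G17260 read 5.33 there against 6.75 to 6.89 on the others, a gap of 0.910 of the group's range. NIP2-1 read 4.97 against 4.14 to 4.22, a gap of 0.898 of the range. This array is the shoot array that stood apart over all probe sets, and 11.8% of the 22645 probe sets had it as far from the other 3, against 0.393% to 0.481% for each of the other arrays. By chance about 1 in 20 groups would be marked, a rate that does not carry over to 5 genes read on the same 4 arrays.

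In 4 atmospheres at least 1 gene was called in the test of the difference between organs, with the root response the higher each time. The differences in log2 fold-change were 2.36 for PDC1 and 1.11 for PDC2 at 50 kPa and 1.16 for PDC2 at 50 kPa/NormOx. At 25 kPa they were 3.67 for PDC1, 1.47 for PDC2, 1.39 for ADH1 and 1.82 for NIP2-1. At 97 kPa/HypOx they were 3.50 for PDC1, 1.39 for PDC2 and 2.15 for NIP2-1. None passed after adjustment at 50 kPa and 50 kPa/NormOx (adjusted p of 0.20 to 0.50), and PDC2 passed in no atmosphere. Without root 97 kPa replicate 1 the PDC2 calls at 50 kPa, 50 kPa/NormOx and 97 kPa/HypOx were lost (0.72, 0.77 and 0.99). The signals of NIP2-1 in shoots and of PDC1 in control shoots were dim and were not tested against background.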

How the results depend on the processing

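Over 145 values (5 genes in 29 comparisons), 37 were called. Of 3760 recomputed values, 3717 had the same call, 19 ended a call, 24 made one and 0 turned the direction of a called value, while 73 changed the sign of a value, and 29 of the 37 calls were kept in every alternative run. Leaving out 1 array at a time, the number of calls against 97 kPa was 11 to 15 (13 with all arrays) in roots and 1 to 2 (1) in shoots. For oxygen withheld against supplied it was 4 to 5 (4) in roots and 0 to 1 (0) in shoots. For 25 kPa against 97 kPa/HypOx and 50 kPa it was 1 to 3 (3) in roots and 0 to 0 (0) in shoots, for oxygen, pressure and interaction 5 to 5 (5) and 1 to 1 (1), and for root minus shoot 7 to 15 (10). Without the single root 25 kPa/NormOx array the comparisons that need it gave no value. Quantile normalization over both organs gave 2 calls against 97 kPa in shoots in place of 1, and 1 call for oxygen withheld in place of 0, through PDC1 (1.03 and 1.02), and the cause was not tested.

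The replicate numbers could not be shown to pair the arrays: same-numbered arrays had a median correlation of their deviations of 0.10 within roots and −0.03 within shoots. With the replicate block 144 of 145 calls were the same, and PDC1 in roots at 50 kPa/NormOx was called (1.55). With array weights 4 calls ended, among them PDC2 in roots at 50 kPa (0.97), and 4 were made. The gene-by-gene method of these weights was chosen after the usual one did not converge on these data. With only the 2 groups compared, PDC2 (1.27) and AT4G17260 (1.37) lost their calls in roots at 50 kPa. The spread then came from root 97 kPa and 50 kPa alone, and the cause of the loss was not tested. Leaving out both arrays that stood apart, an alternative chosen after seeing the data, ended the root minus shoot calls of PDC2 at 50 kPa (0.72), 50 kPa/NormOx (0.67) and 97 kPa/HypOx (0.99).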
